A study of Mus musculus with 4 samples.

Results

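The genes described here encode the ligands, secreted binding proteins, receptors, SMAD proteins and Id target genes of bone morphogenetic protein (BMP) and activin signalling. They were taken by a pattern of gene symbols that matched 53 of the 30142 genes tested. The pattern itself uses no measured value, but the pathway was chosen with earlier results of these data known. The 53 comprise 23 ligand genes, 7 secreted binding proteins, 9 receptors, 8 SMADs, 4 Id genes and 2 genes, Bmp1 and Bmp2k, that share the name but encode a protease and a kinase. The pattern also names Gdf1 and Gdf15, which were not analysed here.

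Expression was measured in lung cells lacking CD45, the surface marker of leukocytes, from C57BL/6 mice at day 10 after an intratracheal dose of PBS or bleomycin (BLM). Bleomycin, which breaks DNA, injures the lung and leads to fibrosis. Each group held 2 samples, PBS replicates 1 and 2 and BLM replicates 1 and 2, each on 1 Affymetrix array, and the labels give neither age nor sex and do not say whether mice were pooled or whether replicates came from separate mice. All p-values below rest only on how far these samples lay apart, and that spread may be technical.

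BMPs, growth differentiation factors (GDFs) and activins are secreted dimers of the TGF-beta superfamily. A ligand brings type I and type II receptor kinases together, and the type I receptor then phosphorylates SMADs: Smad1, Smad5 and Smad9 for BMPs, Smad2 and Smad3 for activins and TGF-beta. These enter the nucleus with Smad4, where the BMP branch typically raises the Id genes and the inhibitory SMADs. Secreted proteins such as noggin, gremlin and follistatin bind the ligands and keep them from the receptors. In the lung, BMP signalling is known for its roles in branching, in alveolar epithelium and in the vessel wall, where loss of Bmpr2 is a cause of inherited pulmonary hypertension.

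The arrays of the whole series differed beyond these genes. Values are log2 expression values as deposited, and array medians over genes lay between 5.99 and 6.03. The 5222 negative control probe sets had medians of 6.16 and 6.21 in PBS and 6.01 and 5.99 in BLM, with 95th percentiles of 10.3 to 10.6, and no detection calls were used. Of the 53 genes 19 lay under the control median on all 4 arrays and 22 on both PBS arrays, so such genes are not shown to be above background. Ptprc, the gene of CD45, stood at 6.30 and 6.21 in PBS and at 7.19 and 7.20 in BLM. Of 12 leukocyte markers 8 rose and 1 fell, and their mean level per array was 7.48 and 7.51 in PBS against 8.88 on both BLM arrays. Alveolar epithelial markers fell in 8 of 12 cases (mean level 13.92 to 13.93 in PBS, 13.17 to 13.27 in BLM), ciliated markers in 7 of 7 (11.23 to 11.29 against 9.08 to 9.21), and mesothelial markers rose in 5 of 6 (6.66 to 7.03 against 7.87 to 7.89). Smooth muscle and pericyte markers moved both ways, with 2 of 8 higher and 3 lower. No marker measured is listed at 0, but Cd3e, Cd79a and Wt1 lay under the control median on all 4 arrays. Xist, the transcript of the inactive X chromosome, stood at 15.86 and 15.61 in PBS and at 5.60 and 5.43 in BLM, and the Y-linked Eif2s3y at 5.99 and 6.88 against 9.08 and 9.05, so treatment and this sex-linked difference cannot be told apart in any value below. Bmp15 and Chrdl1, the members on the X chromosome, did not pass the threshold.

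In BLM against PBS the 3 largest differences among the members were in genes of secreted binding proteins. Fst, Grem1 and Bmper, which encode secreted binding proteins, were 19.5-fold, at least 12.8-fold and 8.28-fold higher, the ligand genes Bmp5 and Inhba 3.81-fold and 3.05-fold higher, and the target gene Id3 3.16-fold higher. For Grem1, whose PBS values lay under the median negative control, the bound sets them at that median, a choice made after seeing the data. It is a bound only if that median is taken as the floor. Fst and Bmper in PBS lay above that median but under the 95th percentile of the controls, so their folds are ratios of the deposited values. In BLM, Grem1 and Bmper also lay under the 95th percentile of the controls (10.343 and 10.259 on BLM replicates 1 and 2). The deepest fall among members was that of the inhibitory SMAD gene Smad6, which was 1.91-fold lower. Inhba and Smad6 lay under the 95th percentile of the controls on all 4 arrays, and Id3 did on both PBS arrays. Here a gene rose or fell where its adjusted p in limma, a linear model fitted to all 30142 genes, lay under 0.05.

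Of the 53 genes, 20 (37.7%) passed, where 25.3% of all genes tested did. Higher in BLM were 15 (28.3%, against 15.2% of all genes), and 5 were lower (9.43%, against 10.1%). At least 2-fold higher by the deposited values were 7 members, where 2.81% of all genes were, and 0 members were at least 2-fold lower, where 2.33% of all genes were. The PBS and BLM values did not overlap for 37 members (69.8%), against 63.3% of all genes. The median difference of the members was 0.11 log2 units, and that of all genes was 0.05. Leaving out PBS replicate 1 or 2 gave 10 and 12 members higher and 2 and 1 lower, and leaving out BLM replicate 1 or 2 gave 8 and 11 higher and 1 and 1 lower. With cyclic loess scaling, which moved the median of all genes from 0.05 to -0.004, 14 members were higher and 8 lower. With dim genes left out (those with a mean over the arrays below that of the median gene) 19 of 32 members passed (59.4%) against 53.4% of 15071 genes, 12 higher (37.5% against 31.5%) and 7 lower (21.9% in both). With cyclic loess the higher share of the members' calls was 63.6% instead of 75.0%, and that of all genes' calls was 49.6% instead of 60.1%. In every fit that left out 1 array 9 of the 20 stayed past the threshold: Fst, Grem1, Bmper, Bmp5, Bmp7, Inhba, Id3, Smad1 and Smad6.

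**Figure D1:**
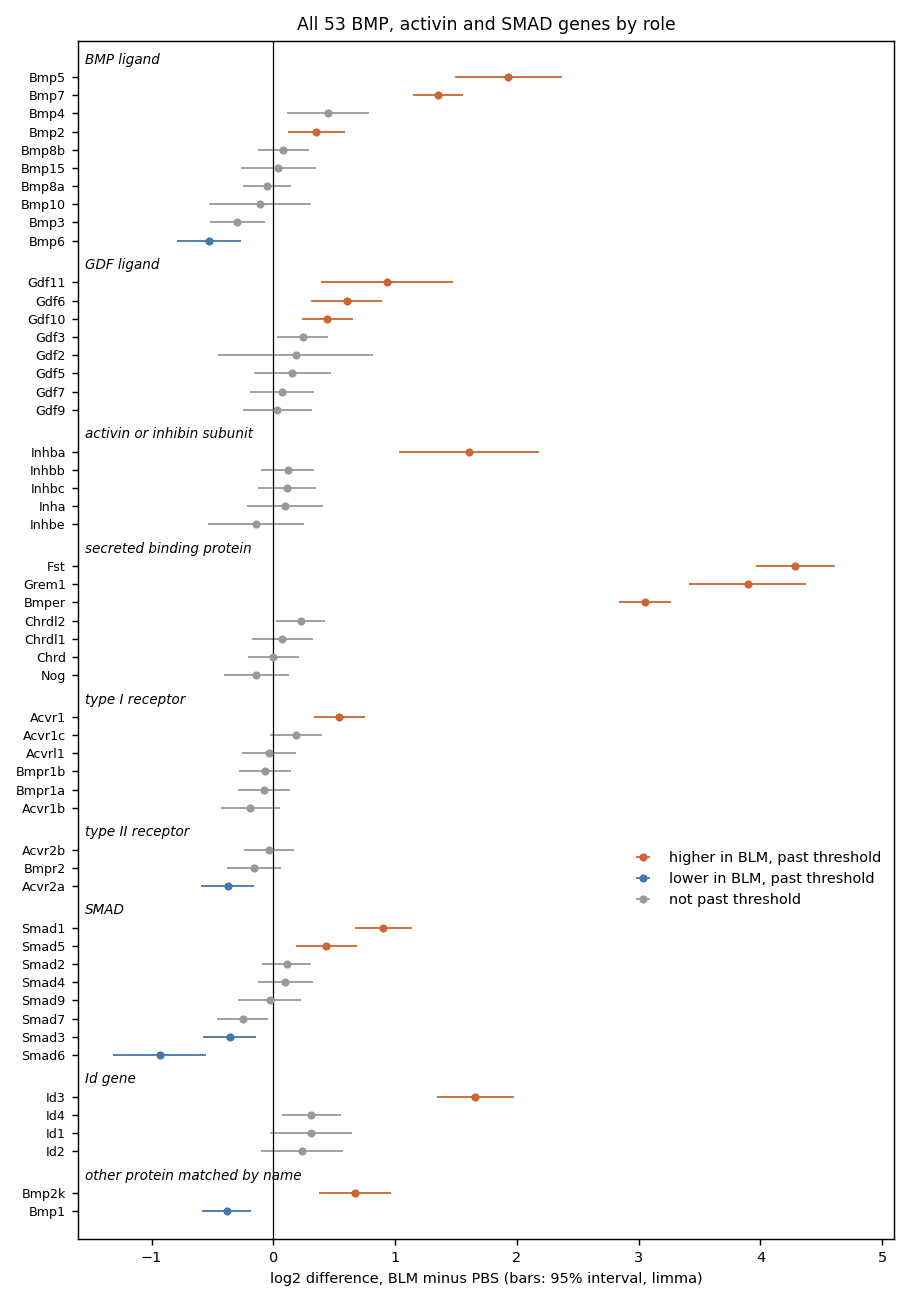
Log2 difference, BLM minus PBS, of all 53 genes grouped by role, with 95% intervals from limma (n = 2 arrays per group); orange marks genes higher and blue genes lower past the threshold, grey the rest. The 3 secreted binding proteins Fst, Grem1 and Bmper lie farthest right, at 4.29, 3.89 and 3.05, and the 9 receptors lie between -0.38 and 0.54.

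Promoter sequence is shown for members that the results turn on. The RefSeq promoter table (GRCm38.p6) holds 36 of the 53 members, in 41 promoters, and the 250 bases before the start it uses are given here. For Smad6, on the minus strand, this window overlaps the annotated gene, which starts at 64022085. Grem1 and Bmper are shown as secreted binding proteins with large rises, and Id3 and Smad6 as known BMP target genes that moved in opposite directions. Capitals mark 2 motifs, searched on both strands: CAGAC, a short SMAD-binding element printed as its reverse complement where it lies on the other strand, and GGCGCC, a GC-rich element to which BMP SMADs bind.

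Grem1, chr2:113758649-113758898, minus strand: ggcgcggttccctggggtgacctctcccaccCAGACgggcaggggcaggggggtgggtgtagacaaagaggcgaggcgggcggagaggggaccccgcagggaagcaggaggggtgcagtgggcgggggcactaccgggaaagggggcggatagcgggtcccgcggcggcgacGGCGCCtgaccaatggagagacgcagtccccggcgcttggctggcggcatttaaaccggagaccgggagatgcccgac
Bmper, chr9:23222826-23223075, plus strand: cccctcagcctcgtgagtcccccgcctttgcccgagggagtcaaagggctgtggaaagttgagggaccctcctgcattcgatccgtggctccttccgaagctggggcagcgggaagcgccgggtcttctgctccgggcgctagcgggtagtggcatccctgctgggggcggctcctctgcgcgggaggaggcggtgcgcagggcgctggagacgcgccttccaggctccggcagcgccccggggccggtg
Id3, chr4:136143572-136143821, plus strand: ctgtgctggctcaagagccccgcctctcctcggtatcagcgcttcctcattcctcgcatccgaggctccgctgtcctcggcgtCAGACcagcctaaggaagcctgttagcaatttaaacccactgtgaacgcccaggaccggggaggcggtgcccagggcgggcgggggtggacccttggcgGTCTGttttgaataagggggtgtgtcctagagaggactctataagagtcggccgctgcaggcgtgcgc
Smad6, chr9:64022060-64022309, minus strand: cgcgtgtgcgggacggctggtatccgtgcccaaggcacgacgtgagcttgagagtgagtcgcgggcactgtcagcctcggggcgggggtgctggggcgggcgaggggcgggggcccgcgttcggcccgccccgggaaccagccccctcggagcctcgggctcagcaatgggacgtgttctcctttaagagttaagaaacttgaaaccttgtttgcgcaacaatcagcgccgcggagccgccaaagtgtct

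The Grem1 window held 1 CAGAC and 1 GGCGCC, and the Id3 window held 2 CAGAC matches, 1 on each strand. In the Bmper and Smad6 windows these letters were not found. CAGAC occurred in 42.2% of all 32851 promoter windows of this length and in 15 of the 41 member windows, and GGCGCC in 9.59% and in 9 of 41. The motif TGANTCA, the AP-1 element, was in 6.75% of all windows and in 0 of the 41. The motifs do not overlap each other in the windows shown. Bases G and C made up 72.0% of the Grem1 window, 71.6% of Bmper, 66.8% of Smad6 and 62.8% of Id3.

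Among the secreted binding proteins 3 of 7 rose (42.9%, against 15.2% of all genes), and these were the 3 largest differences among the 53 genes. Follistatin (Fst), which binds and neutralises activins, stood at 7.16 and 6.87 in PBS and at 11.38 and 11.22 in BLM. Both BLM values lay at least 4.06 log2 units above both PBS values. The difference was 4.29 (SE 0.13, n = 2 per group, adjusted p = 0.00024), a fold of 19.5 with a 95% interval of 15.6 to 24.4. Gremlin 1 (Grem1), an antagonist that binds BMP ligands, stood at 5.88 and 6.05 in PBS and at 10.13 and 9.59 in BLM. Its PBS values lay under the median negative control of each array. The deposited values differed by 3.89 (SE 0.19, adjusted p = 0.000414), and by at least 3.67 with PBS set at the control median. Bmper, a chordin-type protein that binds BMPs and can raise or lower their activity, stood at 6.56 and 6.50 against 9.54 and 9.62, a difference of 3.05 (SE 0.08, adjusted p = 0.00024). These are the Grem1 and Bmper promoters printed above.

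The classical antagonist genes noggin (Nog) and chordin (Chrd) and the chordin-like genes Chrdl1 and Chrdl2 did not pass, with differences from -0.14 to 0.23 log2 units and 95% intervals that together span -0.41 to 0.43. Chrdl2 was the nearest of these to the threshold (adjusted p = 0.104). Nog, Chrd and Chrdl2 lay under the control medians on all 4 arrays, so they are not shown to be above background. Fibroblast markers were higher on the same arrays: 8 of 9 measured rose, and their mean level was 10.14 and 10.21 in PBS against 12.19 and 12.15 in BLM. Their part in the rise of Fst, Grem1 and Bmper was not tested. In RNA from a mixed cell fraction, more cells of a type and more RNA per cell cannot be told apart.

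**Figure D2:**
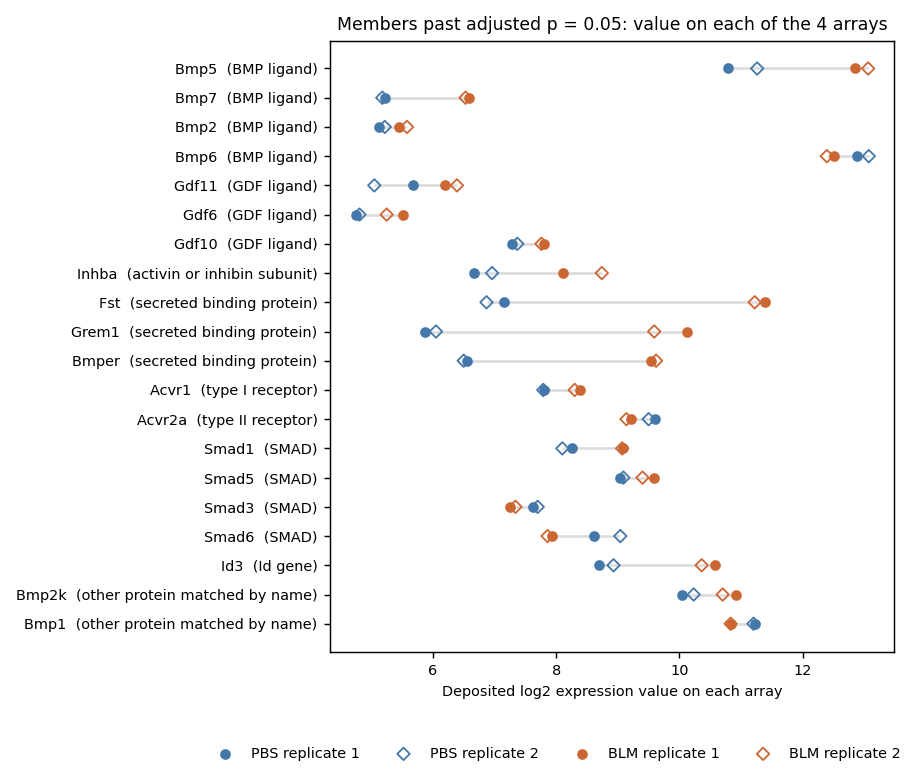
Deposited log2 value on each of the 4 arrays (PBS blue, BLM orange; circles replicate 1, diamonds replicate 2) for the 20 members past the threshold, with a grey line over each gene's range. For Fst, Grem1 and Bmper the gap between the groups is 2.98 to 4.06 log2 units. In none of the 20 genes do the groups overlap, which the threshold that chose them favours. The groups do not overlap in 63.3% of all genes.

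Ligand genes changed in 8 of 23 cases (34.8%, against 25.3% of all genes). Of these 7 were higher (30.4%, against 15.2% of all genes) and 1 lower (4.35%, against 10.1%). Of the 10 BMP ligands 3 rose (30.0%). Bmp5, a BMP of the lung mesenchyme, stood at 10.79 and 11.26 in PBS and at 12.85 and 13.06 in BLM. The PBS arrays lay farther apart than the BLM arrays, and the gap between the groups was 1.59. The difference was 1.93 (SE 0.18, adjusted p = 0.0018). Bmp7, a BMP with wide developmental roles, stood at 5.22 and 5.18 against 6.58 and 6.53, a difference of 1.35 between the deposited values (SE 0.08, adjusted p = 0.000601). Both PBS values lay under the median negative control, and with PBS set at that median Bmp7 was at least 1.29-fold higher (0.37 log2 units). Bmp2 also passed, at 5.12 and 5.22 against 5.45 and 5.58 (0.35, SE 0.09, adjusted p = 0.046), with all 4 values under the control medians. That call was lost whichever array was left out, with an adjusted p of 0.142 (PBS replicate 1), 0.0775 (PBS replicate 2), 0.105 (BLM replicate 1) or 0.215 (BLM replicate 2). Its adjusted p was also above the threshold with a trended robust prior (0.0564), median centring (0.0652) and cyclic loess (0.0748).

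Bmp6, an endothelial BMP best known for the control of iron through hepcidin, was the only ligand gene to fall. Its values were 12.88 and 13.07 in PBS and 12.51 and 12.39 in BLM, so that every BLM value lay below every PBS value. It fell by 0.53 log2 units (SE 0.11, adjusted p = 0.0195), and the adjusted p was 0.0648 without PBS replicate 2, 0.0594 without BLM replicate 1 and 0.101 without BLM replicate 2. Bmp4, a ligand of lung branching, stood at 11.09 and 11.32 against 11.79 and 11.52. The groups did not overlap, but the difference of 0.45 (95% interval 0.11 to 0.79) did not pass (adjusted p = 0.0643), except with dim genes left out (0.0304). Bmp3, which opposes other BMPs, stood at 7.62 and 7.71 against 7.42 and 7.32, a difference of -0.29 (adjusted p = 0.0681), which passed with dim genes left out (0.0288) and with cyclic loess (0.0352). The remaining Bmp8a, Bmp8b, Bmp10 and Bmp15 did not pass and lay under the control medians on all 4 arrays.

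Of the 8 GDF genes 3 rose (37.5%, against 15.2% of all genes) and 5 did not pass, and 7 of the 8 were dim. Gdf11, a relative of myostatin, stood at 5.67 and 5.05 in PBS and 6.20 and 6.39 in BLM. Its difference was 0.93 (SE 0.22, adjusted p = 0.0314), which became 1.25 without PBS replicate 1 and 0.62 without PBS replicate 2, and the call was lost without BLM replicate 1 (adjusted p = 0.0737) or 2 (0.116). Both Gdf11 PBS values lay under the control median, and with PBS set there the difference was at least 0.11. Gdf6, a ligand of joint and skull development, stood at 4.75 and 4.81 against 5.52 and 5.25 (difference 0.60, SE 0.12, adjusted p = 0.0174), all under the control medians. Without PBS replicate 1, PBS replicate 2 or BLM replicate 1 its adjusted p was 0.0688, 0.0519 and 0.0750. Gdf10, the BMP3-related ligand and the one GDF gene that was not dim, stood at 7.29 and 7.37 against 7.80 and 7.76. It rose by 0.44 (SE 0.08, adjusted p = 0.0156), a call lost without PBS replicate 1 (0.0591), BLM replicate 1 (0.0958) or BLM replicate 2 (0.0743). Gdf2, which encodes the circulating ligand BMP9, and Gdf3, Gdf5, Gdf7 and Gdf9 did not pass, at differences of 0.03 to 0.24. These 5 lay under the control medians on all 4 arrays, so they are not shown to be above background.

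Among the 5 activin and inhibin subunits 1 rose, where 15.2% of all genes did. Inhba, the subunit of activin A, stood at 6.66 and 6.96 in PBS and at 8.11 and 8.74 in BLM. The BLM arrays were farther apart than the PBS arrays, yet the gap between the groups was 1.15. The difference was 1.61 (SE 0.23, adjusted p = 0.00666), and it ranged from 1.29 without BLM replicate 2 to 1.92 without BLM replicate 1. The other subunits, Inhbb, Inhbc, Inhbe and the inhibin-specific Inha, lay between -0.14 and 0.12, with 95% intervals that together span -0.54 to 0.41. Inhbc and Inhbe lay under the control medians on all 4 arrays. Thus both the activin A subunit and follistatin, its binding protein, were higher on the same arrays.

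**Figure D3:**
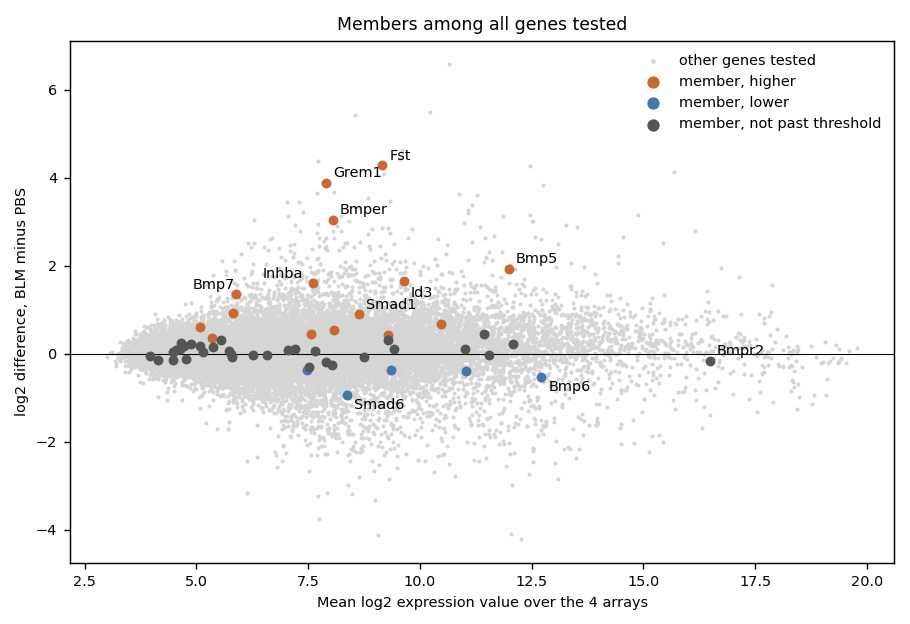
Log2 difference, BLM minus PBS, against the mean log2 value over the 4 arrays, for all genes tested (light grey, Xist left out) and the 53 members (orange higher, blue lower, dark grey not past the threshold). Fst at 4.29 and Grem1 at 3.89 are the highest of the members, and no member lies at or below -1.

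Of the 9 receptor genes 1 rose and 1 fell (22.2%, against 25.3% of all genes), and the differences ran from -0.38 to 0.54 log2 units. Acvr1, which encodes the type I receptor ALK2, stood at 7.81 and 7.79 in PBS and 8.38 and 8.30 in BLM. It rose by 0.54 (SE 0.08, adjusted p = 0.00841), with an adjusted p of 0.0612 without BLM replicate 1. Acvr2a, a type II receptor used by activins and BMPs, stood at 9.60 and 9.50 against 9.21 and 9.14 and fell by 0.38 (SE 0.09, adjusted p = 0.0307). The Acvr2a call was lost whichever array was left out, with an adjusted p of 0.103 or 0.0539 when PBS replicate 1 or 2 was left out and 0.111 or 0.153 when BLM replicate 1 or 2 was.

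Bmpr2, the BMP type II receptor, stood at 16.52 and 16.60 in PBS and at 16.45 and 16.35 in BLM. Its difference was -0.16 (95% interval -0.38 to 0.06, adjusted p = 0.261), and with cyclic loess it was -0.33 (adjusted p = 0.0431). Acvrl1, the endothelial type I receptor ALK1, stood at 11.51 and 11.61 against 11.56 and 11.48, and the groups overlapped. Its difference of -0.04 had a 95% interval of -0.26 to 0.19 (adjusted p = 0.809), and its sign turned, to 0.02 without PBS replicate 2 and 0.004 without BLM replicate 2. The BMP type I receptors Bmpr1a and Bmpr1b, the activin type I receptors Acvr1b and Acvr1c and the type II receptor Acvr2b did not pass either. The 95% intervals of the 5 type I genes that did not pass together span -0.43 to 0.40. Bmpr1b and Acvr1c lay under the control medians on all 4 arrays, so they are not shown to be above background.

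The SMAD genes moved both ways, 2 of 8 higher and 2 lower (25.0% each, against 15.2% and 10.1% of all genes). None of the 8 was dim, and with dim genes left out 31.5% of genes were higher and 21.9% lower. Smad1, which carries the BMP signal, stood at 8.26 and 8.10 in PBS and at 9.09 and 9.07 in BLM. It rose by 0.90 (SE 0.09, adjusted p = 0.00251). Smad5, in the same branch, stood at 9.03 and 9.09 against 9.59 and 9.40 and rose by 0.44 (SE 0.10, adjusted p = 0.0297), but not when PBS replicate 1 or 2 (adjusted p = 0.1 and 0.0719) or BLM replicate 1 or 2 (0.153 and 0.0525) was left out. Smad9, the remaining SMAD of the BMP branch, lay at 6.18 and 6.39 against 6.24 and 6.27 and did not pass.

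In the activin and TGF-beta branch, Smad3 stood at 7.62 and 7.70 in PBS and 7.25 and 7.34 in BLM. It fell by 0.36 (SE 0.09, adjusted p = 0.0345), a call lost when PBS replicate 1 or 2 (0.0703 and 0.109) or BLM replicate 1 or 2 (0.183 and 0.104) was left out. Smad2 and the common partner Smad4 did not pass, at differences of 0.11 and 0.10. Of the inhibitory SMADs, Smad6, which blocks the BMP branch and is itself a BMP target, stood at 8.62 and 9.04 against 7.93 and 7.86. Every BLM value lay at least 0.69 below every PBS value, and Smad6 fell by 0.93 (SE 0.15, adjusted p = 0.0106). Smad7, which blocks both branches, stood at 8.17 and 8.16 against 7.95 and 7.87. It did not pass (adjusted p = 0.0846), although it did with dim genes left out (0.0359) and with cyclic loess (0.0385).

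Id genes encode helix-loop-helix proteins without a DNA-binding region, which hold back other factors of that class. Of the 4 Id genes 1 rose (25.0%, against 15.2% of all genes). Id3 stood at 8.69 and 8.93 in PBS and at 10.57 and 10.36 in BLM, and the gap between the groups was 1.43. It rose by 1.66 (SE 0.13, adjusted p = 0.00111), 3.16-fold with a 95% interval of 2.53 to 3.93. Id1 stood at 9.02 and 9.27 against 9.58 and 9.32, so that BLM replicate 2 lay just above PBS replicate 2. Its difference was 0.31 (95% interval -0.03 to 0.64, adjusted p = 0.165). Id2 stood at 11.82 and 12.13 against 12.29 and 12.13, with overlapping groups, and differed by 0.23 (95% interval -0.10 to 0.57, adjusted p = 0.274). Id4, a dim gene, stood at 5.36 and 5.44 against 5.63 and 5.79, all under the control medians, and differed by 0.31 (adjusted p = 0.0678). All 4 differences were above 0, and whether that of Id3 differs from those of the others was not tested.

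Of the Id genes and inhibitory SMADs, then, Id3 rose and Smad6 fell on the same arrays, and Id1, Id2, Id4 and Smad7 did not pass. Endothelial markers rose in 5 of 11 cases and fell in 1. Their mean level was 11.28 and 11.42 in PBS and 11.90 and 11.74 in BLM. The part of endothelial cells in the values of Id3, Smad6 and Bmp6 was not tested.

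The 2 members matched by name alone both passed, where 25.3% of all genes did. Neither was dim, and with dim genes left out 53.4% of genes passed. Bmp1, a protease that trims procollagen and frees BMPs by cutting chordin, stood at 11.23 and 11.20 in PBS and at 10.84 and 10.83 in BLM. It fell by 0.38 (SE 0.08, adjusted p = 0.0218), and leaving out PBS replicate 1 or 2 took its adjusted p to 0.0736 or 0.0583, and BLM replicate 1 or 2 to 0.111 or 0.115. Bmp2k, a kinase named for its induction by BMP2, stood at 10.04 and 10.23 against 10.91 and 10.70. It rose by 0.67 (SE 0.12, adjusted p = 0.0131), a call lost without PBS replicate 1 (0.0506) or BLM replicate 1 (0.0669).

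**Figure D4:**
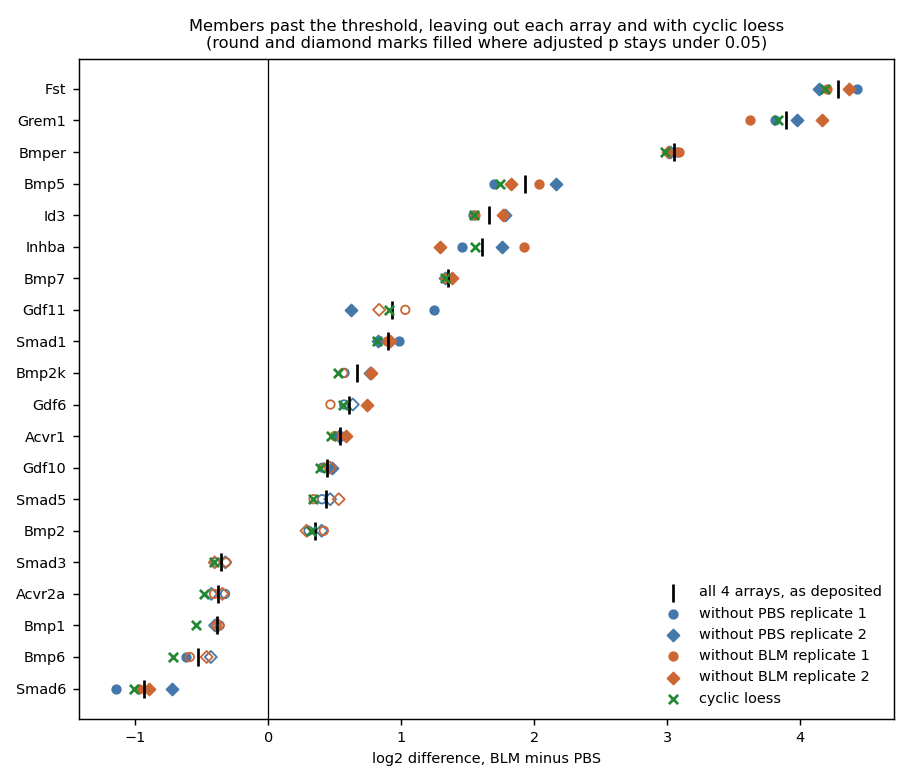
Log2 difference, BLM minus PBS, of the 20 members past the threshold with all 4 arrays (black bars), without each array in turn (circles replicate 1, diamonds replicate 2; blue PBS, orange BLM; filled where the adjusted p stays under 0.05) and with cyclic loess (green crosses). All signs held in these fits, and 9 genes have filled marks throughout.

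Other genes of the pathway, taken from 4 lists, mixed rises and falls. Of 23 modulators outside the cell 5 rose, 4 fell and 14 did not pass, so 39.1% passed, against 25.3% of all genes. Fstl1, a secreted follistatin-like glycoprotein, stood at 11.45 and 11.52 in PBS and at 13.19 on both BLM arrays, rising by 1.71 (SE 0.08, adjusted p = 0.0004), and the BMP antagonist gene Nbl1 rose by 0.97 (SE 0.10). Crim1, a membrane protein that binds BMPs, fell by 0.72 (SE 0.09), and Bambi, a receptor-like protein without kinase that dampens TGF-beta and BMP signals, stood at 8.50 and 8.55 against 7.80 and 7.83, falling by 0.71 (SE 0.08). All 6 genes of the nodal, myostatin and anti-Müllerian hormone branch were dim and lay under the control medians on all 4 arrays. Their differences were -0.14 to 0.21, and none passed in limma (0 of 6 at an unadjusted p under 0.05 too).

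Among 19 SMAD regulators inside the cell 4 rose, 4 fell and 11 did not pass, so 42.1% passed, against 25.3% of all genes. Of the 19, 2 were dim, and with dim genes left out 53.4% of genes passed. Pmepa1, a TGF-beta-induced protein that keeps SMADs from the receptor, rose by 2.46 (SE 0.11). The ubiquitin ligase genes Nedd4l and Wwp1 fell by 1.02 (SE 0.08) and 0.68 (SE 0.09), and Tob1, an antiproliferative protein that binds SMADs, fell by 0.78 (SE 0.08). Of 13 listed BMP targets other than the Id genes 11 were measured, with 2 higher, 1 lower and 8 not past the threshold. The share that passed, 27.3%, was near the 25.3% of all genes. Tmem100, a membrane protein gene downstream of ALK1 in endothelium, stood at 12.76 and 13.05 in PBS and at 11.06 and 10.66 in BLM. Its fall of 2.05 (SE 0.17, adjusted p = 0.00139) was larger than that of any of the 53 members. Unc5b, a netrin receptor gene, rose by 1.24 (SE 0.10), and the homeobox gene Msx1 by 0.65 (SE 0.16, adjusted p = 0.0366), with all 4 Msx1 values under the control medians. The Msx1 difference was 0.42 without PBS replicate 1 (adjusted p = 0.0536), and its call was also lost without BLM replicate 1 or 2 (0.114 and 0.123) and with cyclic loess (0.0637).

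**Figure D5:**
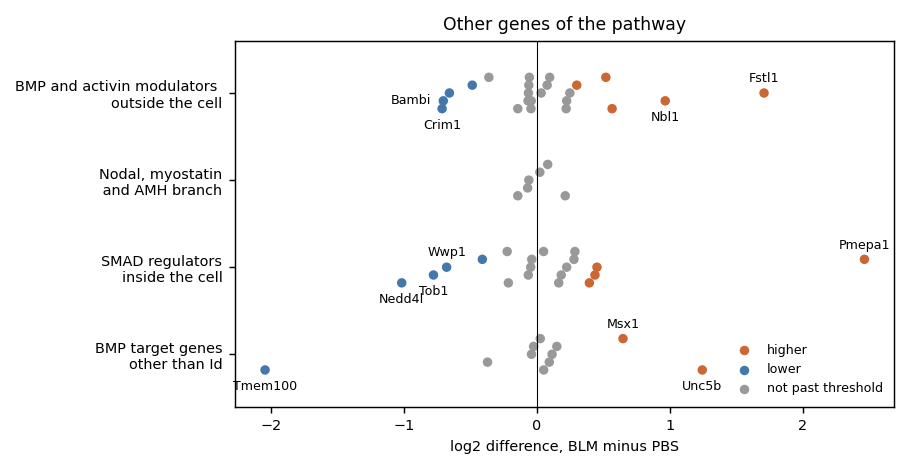
Log2 difference, BLM minus PBS, of 59 further pathway genes in 4 lists (1 point per gene, spread vertically for legibility; orange higher, blue lower, grey not past the threshold), with the named genes labelled. Pmepa1 at 2.46 and Tmem100 at -2.05 lie at the 2 ends.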

How the data were processed

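Total RNA of 4 samples (2 PBS, 2 BLM) was hybridised to Affymetrix arrays. The authors deposited log2 expression values per transcript cluster, for which the submitters' processing notes name RMA and Expression Console. RMA corrects the background, equalises the distributions of the arrays and summarises the probes of a cluster, which can compress differences of dim genes. Detection calls were not used here, and the number of arrays limits the precision.

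Of 32750 annotated clusters, 30604 carry 1 gene symbol and 2146 several, and the latter were left out. For a gene with more than 1 cluster the one with the highest mean was kept, giving 30142 genes (827 symbols updated by Entrez identifier). Each of the 53 members has 1 cluster, and 32 of them lie at or above the median gene. The test was limma's moderated test (version 3.58.1, R 4.3.3; lmFit and eBayes, two-sided, no covariate, Benjamini-Hochberg over all 30142 genes, threshold 0.05). The median SE was 0.0969, and the smallest difference called was 0.29, and no smaller difference passed. The procedure was tested on simulated data. Among members, values on every array are given for those past the threshold, a fixed panel, Bmp3 and Smad9. From each other pathway list up to 4 genes with the largest difference past the threshold are named. The members and lists were chosen with earlier results of these data known. Marker lists covered 7 cell types. Gata3, Runx2, Egfl7, Pdgfra and Foxj1, also listed, were not analysed here. The alternatives tried were a block on replicate number, omission of single arrays, of dim genes and of X and Y genes, averaging over all clusters per gene, a prior that was trended and robust, median centring and cyclic loess.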

Additional observations from a re-analysis of the deposited data

How the results depend on the processing

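Across 11 tested alternatives the 20 members past the threshold kept their direction, and 9 of them kept their call in each alternative that tested them (Bmp5, Bmp7, Bmper, Fst, Grem1, Id3, Inhba, Smad1 and Smad6; Bmp7 was not tested with dim genes left out). Leaving out 1 array gave 8 to 12 members higher (15 with all arrays), 1 to 2 lower (5 with all arrays) and 4003 to 5956 genes called in all (7629 with all arrays). With 1 array left in a group, that array is assumed to vary like the other group. Raising values under the median negative control to it, chosen after seeing the data and with no test, left differences of at least 3.67 for Grem1, 0.37 for Bmp7 and 0.11 for Gdf11. Cyclic loess gave 8 members lower, with Bmpr2, Bmp3 and Smad7 added. Acvrl1, not past the threshold at -0.04, ranged from -0.089 to 0.016 without each array. The labels do not say that a replicate number marks a shared animal, litter or day. Deviations of same-numbered arrays from their group means correlated at 0.014 across genes. With the replicate number as a block, 6742 genes passed, 13 members higher and 4 lower, with Bmp2, Smad5 and Smad3 at adjusted p = 0.056, 0.0511 and 0.0529.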
